A study of Zea mays with 6 samples.

Results

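Opaque2, Opaque2 heterodimerizing protein 1 (OHP1), naked endosperm1 and Viviparous-1 are transcriptional regulators of the maize kernel. The first 3 were taken by gene identifier, and the last by the words Viviparous-1 in the gene description, which 1 gene carried. This gave 4 genes of the 39179 listed, and all 4 had enough reads to be tested. The RNA came from endosperm, the tissue of the kernel that stores starch and protein, at 20 days after pollination. The 3 nacRNAi libraries (Ni4) came from plants with an RNA interference construct against NAC genes, which encode a family of plant transcription factors, and the 3 wild-type libraries came from plants without it. The labels give the inbred B73 for both lines and call the nacRNAi plants siblings. The sources used here name neither the promoter of the construct nor how many transgenic events Ni4 holds.

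Opaque2 is a bZIP transcription factor of the endosperm that binds promoters of genes for zeins, the prolamins that store protein in the kernel, and its loss gives soft, opaque kernels richer in lysine. OHP1 is a bZIP protein that can pair with Opaque2. Naked endosperm1 is a zinc finger protein of the indeterminate domain family that, with its duplicate naked endosperm2, is needed for normal aleurone, the outer cell layer of the endosperm. Viviparous-1 is a B3 domain protein that carries the response of seeds to abscisic acid, and without it kernels germinate on the ear and the aleurone stays colourless.

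Reads assigned to genes totalled 55812999 to 69670876 per library. Levels are given as counts per 1e+06 reads (CPM) after TMM scaling, which sets the typical gene equal between libraries, and also as CPM by library total, on which the median gene was 0.52 log2 higher in nacRNAi. Zm00001d008403, taken as the targeted gene NAC130 from knowledge of the study and described in the files as Arabidopsis NAC domain containing protein 87, stood at 238, 227 and 222 CPM in nacRNAi, against 1336, 1335 and 1054 CPM in wild type. It was lower in every nacRNAi library (log2 fold change -2.44, edgeR adjusted p = 4.22e-06). Zm00001d040189, taken likewise as the other target NAC128, was at 248, 300 and 283 CPM in nacRNAi, against 309, 359 and 271 CPM in wild type, and did not pass (log2 fold change -0.18, edgeR adjusted p = 0.245). Its direction turned with the scale, and it passed as higher by library totals (0.35, edgeR adjusted p = 0.0168). It did so too in FPKM with 1 added before the log (0.54, limma adjusted p = 0.00433). The files describe this gene as no-apical-meristem-related protein1, and whether reads of the construct were counted to it is not known. Zein genes, which mark the starchy endosperm, took 23.0% to 24.0% of all counts in nacRNAi and 38.1% to 40.7% in wild type.

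Of 22259 genes tested 47.3% passed the edgeR quasi-likelihood test at a Benjamini-Hochberg adjusted p under 0.05, with 23.2% higher and 24.0% lower in nacRNAi. Counts in the gene lists below are to be read beside these shares. Of the 4 regulators 2 passed, opaque2 and Viviparous-1, both lower, which is close to the share among all genes. The lines did not overlap for the same 2 regulators, nor for 59.2% of all genes. Since nothing in the labels ties the 3 libraries of a line to separate plants, a p-value here covers the spread among these libraries alone, which may be technical.

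The opaque2 gene (Zm00001d018971, chromosome 7, 11075377 to 11078232, plus strand, in the files' coordinates with the build unnamed) was lower in nacRNAi endosperm. Its level was 344, 365 and 323 CPM in the nacRNAi libraries, against 591, 848 and 576 CPM in the wild-type libraries. Every nacRNAi library lay below every wild-type library, as for 29.5% of all genes tested, and wild-type replicate 2 stood above the other two. The means were 344 ± 21.0 CPM in nacRNAi and 672 ± 153 CPM in wild type (SD, n = 3 each), a 1.95-fold lower level. The change was -0.96 on the log2 scale (SE 0.15, 95% interval -1.33 to -0.60, edgeR adjusted p = 0.00229). An exact permutation test, two-sided, gave p = 0.1, the smallest that 3 against 3 libraries allow.

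The fall of opaque2 was smaller on scales that let the median gene rise. By library totals it was at 410, 432 and 392 CPM in nacRNAi, against 491, 683 and 502 CPM in wild type. The lines still did not overlap on that scale, where 67.1% of all genes did not overlap but only 11.2% lay lower in nacRNAi. The log2 fold change by library totals was -0.44 (edgeR adjusted p = 0.0175), in a setting where 59.5% of genes passed, 9.00% as lower. In the authors' FPKM values, which are scaled by gene length, opaque2 was at 169, 169 and 158 in nacRNAi, against 210, 339 and 208 in wild type. The lines did not overlap in FPKM either, as for 69.3% of genes, 8.02% with nacRNAi below.

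On log2(FPKM + 1) the change of opaque2 was -0.57 (limma adjusted p = 0.0417), where 62.9% of genes passed and 6.73% passed as lower. On log2(FPKM + 0.1) it was again -0.57 but did not pass (limma adjusted p = 0.0593), while 62.5% of genes did. Without wild-type replicate 2 the TMM-scaled change was -0.76 (edgeR adjusted p = 0.000329). That library also held the lowest wild-type level of maternally expressed gene4 (Zm00001d019541), a marker of the basal transfer layer, at 24.4 CPM against 51.0 and 58.5 CPM in the other wild-type libraries. This gene was 1 of 11 such markers listed, and on the TMM scale it was itself lower in nacRNAi, as opaque2 was. The part of this marker in the opaque2 result was not tested.

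**Figure D1:**
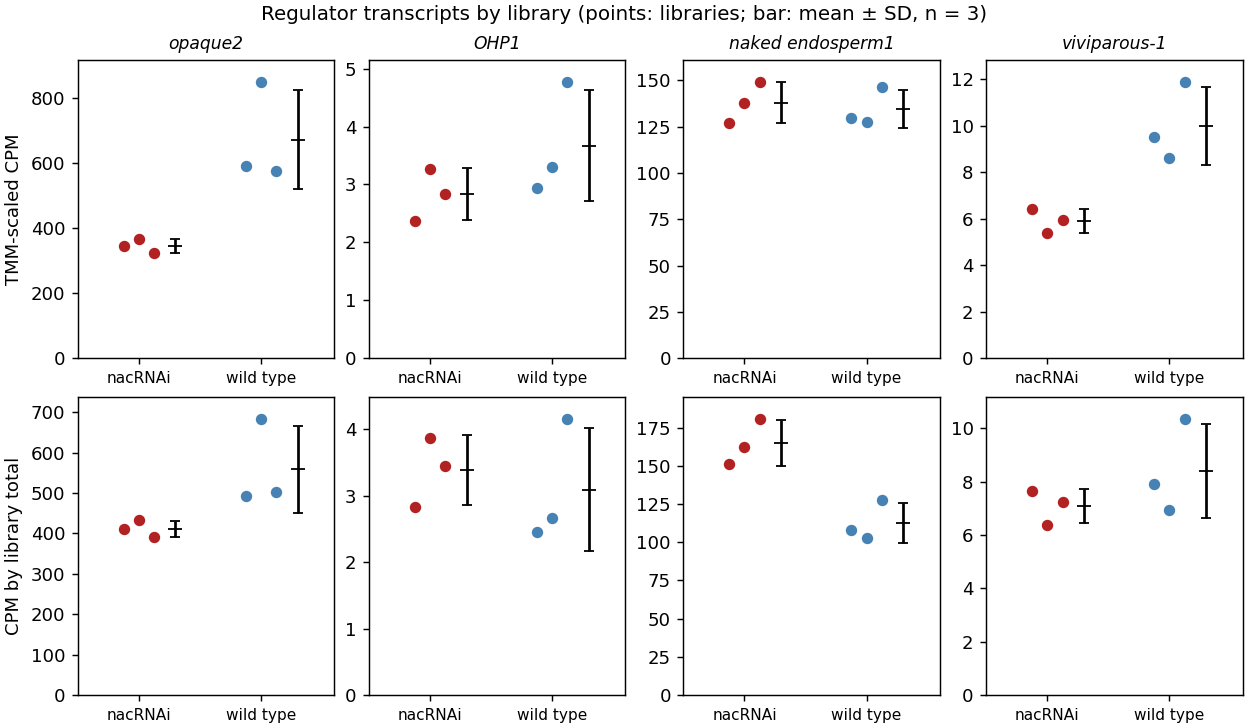
Levels of the 4 regulator genes in each library, as TMM-scaled CPM (upper row) and as CPM by library total (lower row); points are libraries, nacRNAi in red and wild type in blue, and bars are the mean ± SD of 3 libraries. The opaque2 points of nacRNAi lie below those of wild type in both rows, while those of naked endosperm1 overlap in the upper row and lie above wild type in the lower one.

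OHP1 (Zm00001d034457, chromosome 1, 293562779 to 293567510, minus strand) was a weakly counted gene with no detected difference between the lines. It had 197, 234 and 204 reads in nacRNAi, against 158, 159 and 232 reads in wild type. As TMM-scaled CPM this was 2.37, 3.27 and 2.84 in nacRNAi, against 2.94, 3.31 and 4.77 in wild type. The lines overlapped, and wild-type replicate 3 was the highest of all. The change of -0.38 on the log2 scale (SE 0.23) did not pass (edgeR adjusted p = 0.223; two-sided exact permutation p = 0.2), and its 95% interval ran from -0.92 to 0.17. By library totals it was 0.13 (edgeR adjusted p = 0.672).

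The libraries of wild type varied in OHP1. The 95% Wilson interval was 3.66 to 4.73 CPM by library total in wild-type replicate 3, the highest, and 2.09 to 2.86 CPM in wild-type replicate 1, the lowest. These intervals take each read as independent and are too narrow where PCR copies of a molecule are counted more than once. They therefore do not show that the libraries differed beyond counting error. Maize is known to carry a close copy of OHP1, and how the authors' counting treated reads shared with a copy is not known, so its level is uncertain. The next gene, Zm00001d034456, lies 53 bases away on the other strand and was at only 0.525 ± 0.112 CPM in nacRNAi and 0.125 ± 0.0718 CPM in wild type (SD, n = 3 each).

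The naked endosperm1 gene (Zm00001d002654, chromosome 2, 18312495 to 18320006, minus strand) showed no detected difference between the lines relative to the typical gene. Its level was 127, 137 and 149 CPM in nacRNAi, against 130, 128 and 146 CPM in wild type. The lines overlapped over nearly their whole range. The change was 0.03 on the log2 scale (SE 0.08, 95% interval -0.16 to 0.22, edgeR adjusted p = 0.757; two-sided exact permutation p = 0.8). Among the 4 genes it had the narrowest interval.

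Scaled by library totals, naked endosperm1 was at 151, 163 and 181 CPM in nacRNAi, against 108, 103 and 128 CPM in wild type. The lines did not overlap there, with nacRNAi above, as for 55.9% of all genes, and likewise in FPKM, as for 61.3%. The log2 fold change was 0.55 by library totals (edgeR adjusted p = 0.00177), beside a median gene at 0.52 and 50.5% of genes passing as higher. On log2(FPKM + 1) it was 0.61 (limma adjusted p = 0.003), beside a median gene at 0.38 and 56.2% of genes passing as higher.

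Naked endosperm2 (Zm00001d026113), the duplicate, varied more between libraries. It was at 51.3, 37.4 and 67.3 CPM in nacRNAi, against 44.2, 67.1 and 48.1 CPM in wild type. The lines overlapped (log2 fold change -0.03, SE 0.26, edgeR adjusted p = 0.933).

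Viviparous-1 (Zm00001d042396, chromosome 3, 164461221 to 164466141, plus strand) was lower in nacRNAi relative to the typical gene. Its level was 6.42, 5.39 and 5.95 CPM in nacRNAi, against 9.52, 8.62 and 11.9 CPM in wild type. The lines did not overlap, and wild-type replicate 3 was the highest. The means were 5.92 ± 0.514 CPM in nacRNAi and 10.0 ± 1.68 CPM in wild type (SD, n = 3 each), a 1.69-fold lower level. The change was -0.76 on the log2 scale (SE 0.15, 95% interval -1.10 to -0.41, edgeR adjusted p = 0.00411; two-sided exact permutation p = 0.1).

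That call for Viviparous-1 ended when libraries were scaled by their totals. Its values were then 7.65, 6.38 and 7.23 CPM in nacRNAi, against 7.91, 6.95 and 10.4 CPM in wild type, and the lines overlapped. The change was then -0.25 (edgeR adjusted p = 0.24). A further scale, log2(FPKM + 1), put it at -0.19 (limma adjusted p = 0.189).

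Viviparous-1 is known from both embryo and endosperm, so genes taken as embryo markers were read beside it. Their oleosins also stand among the genes of seed maturation below, so the list cannot be read as embryo tissue alone. Of 76 oleosin, caleosin and late embryogenesis abundant genes 40 had no read in any library and 26 were tested, of which 3 rose and 16 fell (median log2 fold change -0.67). By library totals 6 were higher and 8 lower (median -0.16), and on log2(FPKM + 1) 7 were higher and 3 lower (median 0.14). The median gene stood at 0.52 and 0.38 on these scales, with 50.5% and 56.2% of all genes passing as higher. As lower passed 9.00% and 6.73% of all genes. A caleosin gene (Zm00001d051800), for an oil body protein, was at 37.6, 37.3 and 34.7 CPM in nacRNAi, against 86.1, 88.8 and 91.7 CPM in wild type. The summed level of the list was 1204 to 1511 CPM in nacRNAi and 1890 to 1995 CPM in wild type. As a share of all counts the list took 0.146% to 0.180% in nacRNAi and 0.160% to 0.165% in wild type, which overlap. Its part in the Viviparous-1 result was not tested, and in bulk tissue fewer cells of a type and less RNA per cell cannot be told apart.

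**Figure D2:**
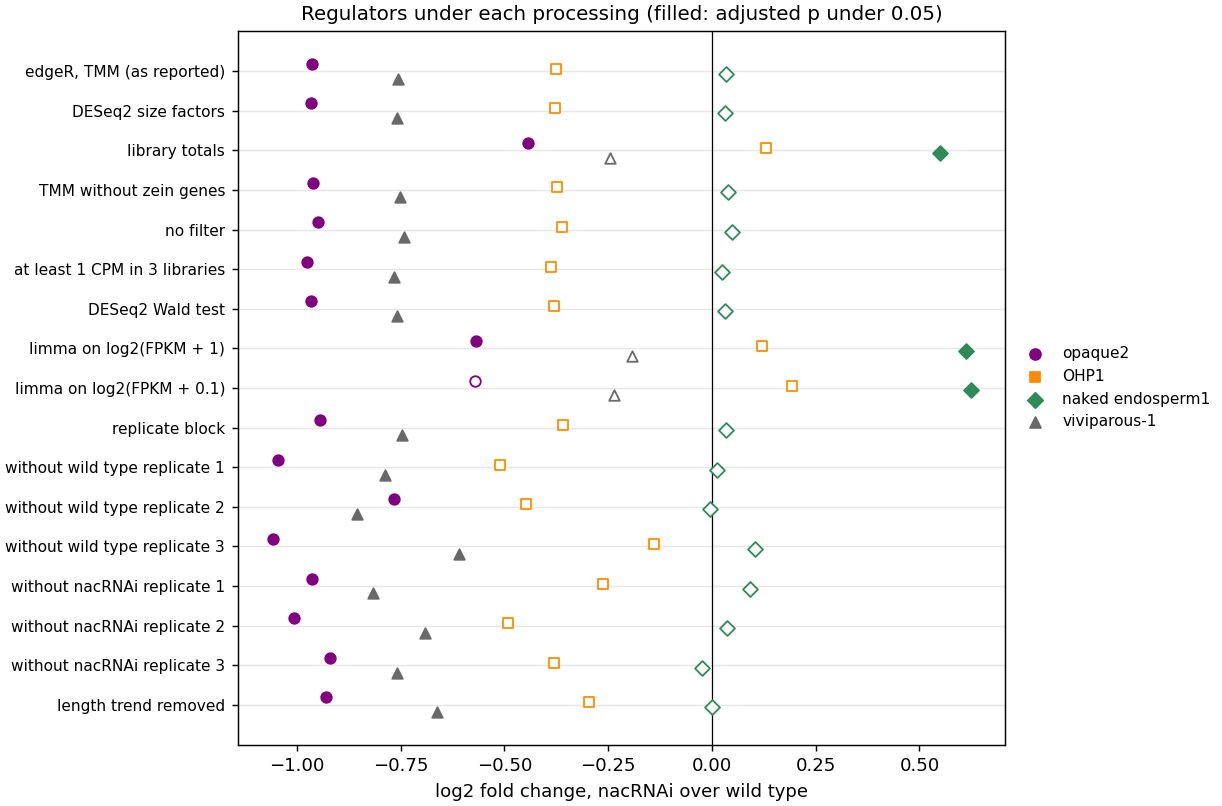
The log2 fold change (nacRNAi over wild type, horizontal axis) of each regulator under every scaling, filter, test and left-out library tried (vertical axis); filled symbols passed an adjusted p under 0.05. The opaque2 values lie between -1.06 and -0.44 throughout, whereas those of naked endosperm1 sit near 0 except by library totals and on FPKM, at 0.55 to 0.62.

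Ratios between the regulators within a library are free of library scaling. The log2 ratio of opaque2 to naked endosperm1 reads was 1.44, 1.41 and 1.12 in nacRNAi, against 2.19, 2.73 and 1.98 in wild type, a difference of -0.98. The log2 ratio of naked endosperm1 to Viviparous-1 reads was 4.31, 4.67 and 4.65 in nacRNAi, against 3.77, 3.89 and 3.62 in wild type, a difference of 0.78. In these 2 of the 6 pairs the lines did not overlap. For comparison, taking the ratio of each other gene tested to naked endosperm1, the lines did not overlap for 53.1% of genes, 27.7% with nacRNAi below. Each of these pairs had a two-sided exact permutation p of 0.1, the smallest possible, and 0.3 after Benjamini-Hochberg adjustment over the 6 pairs.

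The other ratios overlapped between the lines in reads. In FPKM, which the authors computed by steps not known here, OHP1 over naked endosperm1 (log2 difference -0.42) and OHP1 over Viviparous-1 (log2 difference 0.45) did not overlap, each with a two-sided exact permutation p of 0.1. The share over all genes was not computed for FPKM ratios, but FPKM levels did not overlap for 69.3% of genes. The log2 ratio of opaque2 to OHP1 reads averaged 6.94 ± 0.21 in nacRNAi and 7.52 ± 0.55 in wild type (SD, n = 3 each; two-sided exact permutation p = 0.2), a difference of -0.59 that was -0.35 without wild-type replicate 2. That of opaque2 to Viviparous-1 averaged 5.86 ± 0.19 in nacRNAi and 6.06 ± 0.52 in wild type (SD, n = 3 each; two-sided exact permutation p = 0.7), a difference of -0.20. Without wild-type replicate 2 that difference was 0.08. OHP1 relative to naked endosperm1 differed by -0.39 on the log2 scale (two-sided exact permutation p = 0.2), and relative to Viviparous-1 by 0.39 (two-sided exact permutation p = 0.3). After adjustment no pair of read ratios passed, which with 3 libraries a line does not show that the regulators changed alike.

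**Figure D3:**
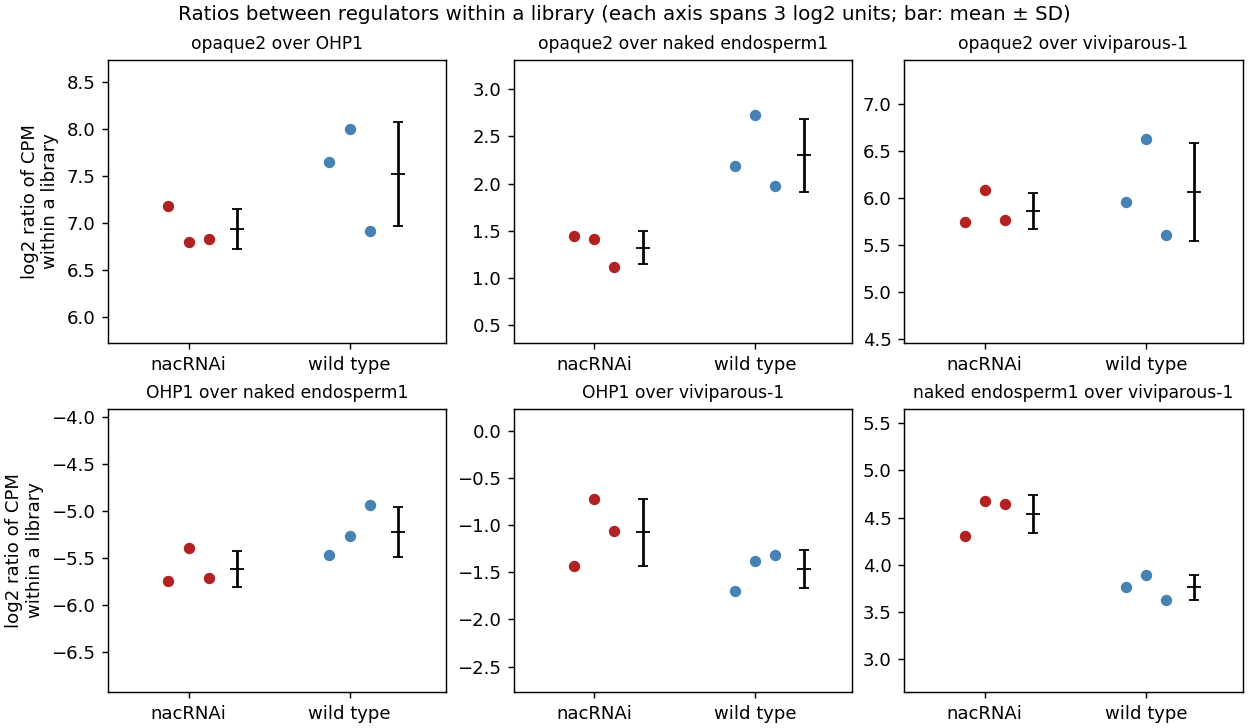
The log2 ratio of read counts between each pair of regulators within a library (vertical axis, spanning the same width in every panel) for nacRNAi (red, left) and wild type (blue, right); bars are the mean ± SD of 3 libraries. The lines separate for opaque2 over naked endosperm1 and for naked endosperm1 over Viviparous-1, and overlap in the other panels.

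Levels per length put the regulators far apart. In FPKM opaque2 averaged 165 ± 6.25 in nacRNAi and 253 ± 75.1 in wild type (SD, n = 3 each, as for the values that follow). Naked endosperm1 averaged 62.1 ± 5.40 FPKM in nacRNAi and 40.3 ± 4.61 FPKM in wild type. Below them, Viviparous-1 averaged 3.54 ± 0.298 FPKM in nacRNAi and 4.21 ± 0.714 FPKM in wild type, and OHP1 averaged 1.66 ± 0.198 FPKM in nacRNAi and 1.46 ± 0.376 FPKM in wild type. The order was the same in all 6 libraries, and no neighbours in it overlapped within a line.

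By FPKM opaque2 ranked 324, 300 and 337 of 39179 genes in nacRNAi, against 194, 119 and 225 in wild type. The FPKM values have a fault among very abundant genes, so such ranks are approximate. Glutelin-2 (Zm00001d020592) is listed at 0 FPKM in all 6 libraries at counts of 5269540 to 6497800, and Zein-alpha A20 (Zm00001d019155) likewise at counts of 957988 to 1353318.

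Each regulator was placed within its own protein family by mean FPKM. None of the 98 other genes described as bZIP exceeded opaque2 in either line. The next highest was a putative bZIP gene (Zm00001d044940) at 85.5 ± 3.22 FPKM in nacRNAi, and bZIP transcription factor 60 (Zm00001d046718) at 51.2 ± 3.48 FPKM in wild type (SD, n = 3 each). OHP1 was exceeded by 45 of the 98 in nacRNAi and by 37 in wild type.

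Of 13 other indeterminate domain genes 1 exceeded naked endosperm1, in both lines. This was Protein indeterminate-domain 5 (Zm00001d006319), at 75.9 ± 3.22 FPKM in nacRNAi and 53.5 ± 5.15 FPKM in wild type (SD, n = 3 each). Viviparous-1 was exceeded by 11 of 55 other B3 domain genes in nacRNAi and by 8 in wild type. A fusca homolog (Zm00001d027359) was the highest of them, at 37.7 ± 2.09 FPKM in nacRNAi and 30.1 ± 0.567 FPKM in wild type (SD, n = 3 each).

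The bZIP genes around opaque2 and OHP1 rose and fell about as often as all genes tested, of which 23.2% were higher and 24.0% lower. Of 65 tested 16 rose and 17 fell, with a median log2 fold change of -0.01, beside a median of -0.00 over all genes tested. A BZIP-type transcription factor (Zm00001d012719) was at 2.54, 5.20 and 6.18 CPM in nacRNAi, against 0.168, 0.208 and 0.185 CPM in wild type (log2 fold change 4.62, edgeR adjusted p = 8.42e-05). An ABA response element binding factor (Zm00001d012296), of a class that acts in abscisic acid response, rose by 1.14 on the log2 scale. A BZIP transcription factor (Zm00001d021452) rose by 1.25 and a putative bZIP gene (Zm00001d049135) by 0.92. By library totals 31 bZIP genes were higher and 2 lower (median 0.50), beside a median gene at 0.52 and 50.5% of genes higher and 9.00% lower.

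Of 9 tested indeterminate domain genes, relatives of naked endosperm1, 3 rose and 1 fell (median -0.11). The indeterminate1 domain7 gene (Zm00001d021403) was at 24.2, 25.1 and 21.6 CPM in nacRNAi, against 5.31, 4.72 and 7.42 CPM in wild type (log2 fold change 2.02, edgeR adjusted p = 8.42e-05). Among genes described as Protein indeterminate-domain 11, Zm00001d008842 rose by 0.80 and Zm00001d021932 fell by 0.91 on the log2 scale. By library totals 5 were higher and 1 lower (median 0.41), beside a median gene at 0.52 and 50.5% of genes higher and 9.00% lower. On the TMM scale the list median was 0.015 without wild-type replicate 2, and the number lower was 2 without nacRNAi replicate 1. Zm00001d021932 did not pass on log2(FPKM + 1) (-0.20, limma adjusted p = 0.0982).

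Of 30 tested B3 domain genes, relatives of Viviparous-1, 8 rose and 6 fell (median 0.21). This is close to the 23.2% higher and 24.0% lower among all genes tested. A gene described as the repressor TEM1 (Zm00001d039907) was at 0.133, 0.0839 and 0.0139 CPM in nacRNAi, against 7.26, 8.76 and 5.01 CPM in wild type. It was near 0 in every nacRNAi library (log2 fold change -6.44, edgeR adjusted p = 9.47e-05). VAL3 (Zm00001d006597), named after a group of seed programme repressors known from Arabidopsis, was at 17.5, 17.9 and 18.8 CPM in nacRNAi, against 34.3, 36.3 and 33.9 CPM in wild type (log2 fold change -0.94, edgeR adjusted p = 4.2e-05). A putative B3 gene (Zm00001d011712) rose by 1.96 and the B3 gene Zm00001d011745 by 1.84 on the log2 scale. By library totals 17 B3 domain genes were higher and 3 lower (median 0.73), beside a median gene at 0.52 and 50.5% of genes higher and 9.00% lower.

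Zein genes, a group that includes the best known targets of Opaque2, fell almost throughout. Of 21 tested 20 fell and 0 rose (median log2 fold change -1.40). By library totals 16 fell and 0 rose (median -0.87), beside a median gene at 0.52 and 9.00% of genes lower. The largest change was that of a gene described as Zein-beta (Zm00001d005793), at 1597, 1581 and 1302 CPM in nacRNAi, against 58113, 61205 and 54329 CPM in wild type (log2 fold change -5.28, edgeR adjusted p = 5.39e-07). Which zein class it encodes was not checked by sequence. The 50kD gamma zein gene (Zm00001d020591) fell by 2.40 and Zein-alpha 19D1 (Zm00001d030855) fell by 2.54 on the log2 scale. Some zein genes fell less, such as 22kD alpha zein4 (Zm00001d048812, log2 fold change -1.29) and zein protein 22.1 (Zm00001d048809, -0.89). Zein protein 22.1 did not pass by library totals (-0.37, edgeR adjusted p = 0.0734). The floury2 gene (Zm00001d049243), which encodes an alpha-zein, was at 5477, 5928 and 4829 CPM in nacRNAi, against 31038, 31766 and 22648 CPM in wild type. It was lower in every nacRNAi library (log2 fold change -2.40, edgeR adjusted p = 2.33e-05). Alpha-zein copies are nearly identical, and single copies may share reads, so the value of 1 copy is uncertain.

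All zein counts together amounted to 581, 555 and 587 reads per opaque2 read in nacRNAi, against 828, 591 and 758 in wild type. The lines did not overlap, though wild-type replicate 2 lay just above the nacRNAi libraries (two-sided exact permutation p = 0.1). How often such a ratio separates the lines over all genes was not computed. Wild-type replicate 2 also stood out in the zein gene that did not pass, 22kD alpha zein5 (Zm00001d048806), which was at 107, 109 and 113 CPM in nacRNAi, against 159, 604 and 108 CPM in wild type (log2 fold change -1.40, edgeR adjusted p = 0.15).

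Other classes known to include Opaque2 targets moved in both directions. Of 21 genes described as ribosome-inactivating proteins, pyruvate orthophosphate dikinases or enzymes of lysine breakdown 9 were tested, and 2 rose and 5 fell (median -0.22). By library totals 4 were higher and 3 lower (median 0.30), and on log2(FPKM + 1) 3 were higher and 3 lower (median 0.10). The median over all genes was 0.52 and 0.38 on these scales. There 50.5% and 56.2% of all genes passed as higher, and 9.00% and 6.73% as lower. Ribosome-inactivating protein 3 (Zm00001d010371) was at 360, 356 and 337 CPM in nacRNAi, against 915, 1124 and 778 CPM in wild type. It was lower in every nacRNAi library, and wild-type replicate 2 was again the highest (log2 fold change -1.42, SE 0.13, edgeR adjusted p = 0.00013). By library totals its change was -0.90 on the log2 scale.

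Lysine-ketoglutarate reductase/saccharopine dehydrogenase1 (Zm00001d052079), the bifunctional enzyme that starts lysine breakdown, was at 257, 261 and 260 CPM in nacRNAi, against 512, 586 and 562 CPM in wild type. The lines lay far apart (log2 fold change -1.09, SE 0.07, edgeR adjusted p = 1.83e-05), and the change was -0.58 by library totals. A saccharopine dehydrogenase gene (Zm00001d022043) was at 27.5, 24.6 and 24.8 CPM in nacRNAi, against 54.2, 40.6 and 36.9 CPM in wild type (log2 fold change -0.78, edgeR adjusted p = 0.00368). It did not pass by library totals (-0.26, edgeR adjusted p = 0.135) or on log2(FPKM + 1) (-0.02, limma adjusted p = 0.891).

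The pyruvate orthophosphate dikinase genes, whose enzyme interconverts pyruvate and phosphoenolpyruvate, moved little. Pyruvate orthophosphate dikinase2 (Zm00001d010321) was at 3723 ± 103 CPM in nacRNAi and 4326 ± 211 CPM in wild type (SD, n = 3 each; log2 fold change -0.22, edgeR adjusted p = 0.0349), but was higher by library totals, at 0.30 (edgeR adjusted p = 0.0153), and did not pass on log2(FPKM + 1), at 0.11 (limma adjusted p = 0.262). Pyruvate orthophosphate dikinase1 (Zm00001d038163) was at 1321 ± 123 CPM in nacRNAi and 1215 ± 55.4 CPM in wild type (SD, n = 3 each) and did not pass (log2 fold change 0.12, edgeR adjusted p = 0.27). By library totals it passed as higher, at 0.64 (edgeR adjusted p = 0.000255). The genes of these classes that rose were scarce. An rRNA N-glycosidase gene (Zm00001d034382) had 52, 42 and 16 reads in nacRNAi, against 2, 0 and 0 reads in wild type, and a second saccharopine dehydrogenase gene (Zm00001d004978) was at 2.58 ± 0.124 CPM in nacRNAi and 1.39 ± 0.186 CPM in wild type (SD, n = 3 each).

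**Figure D4:**
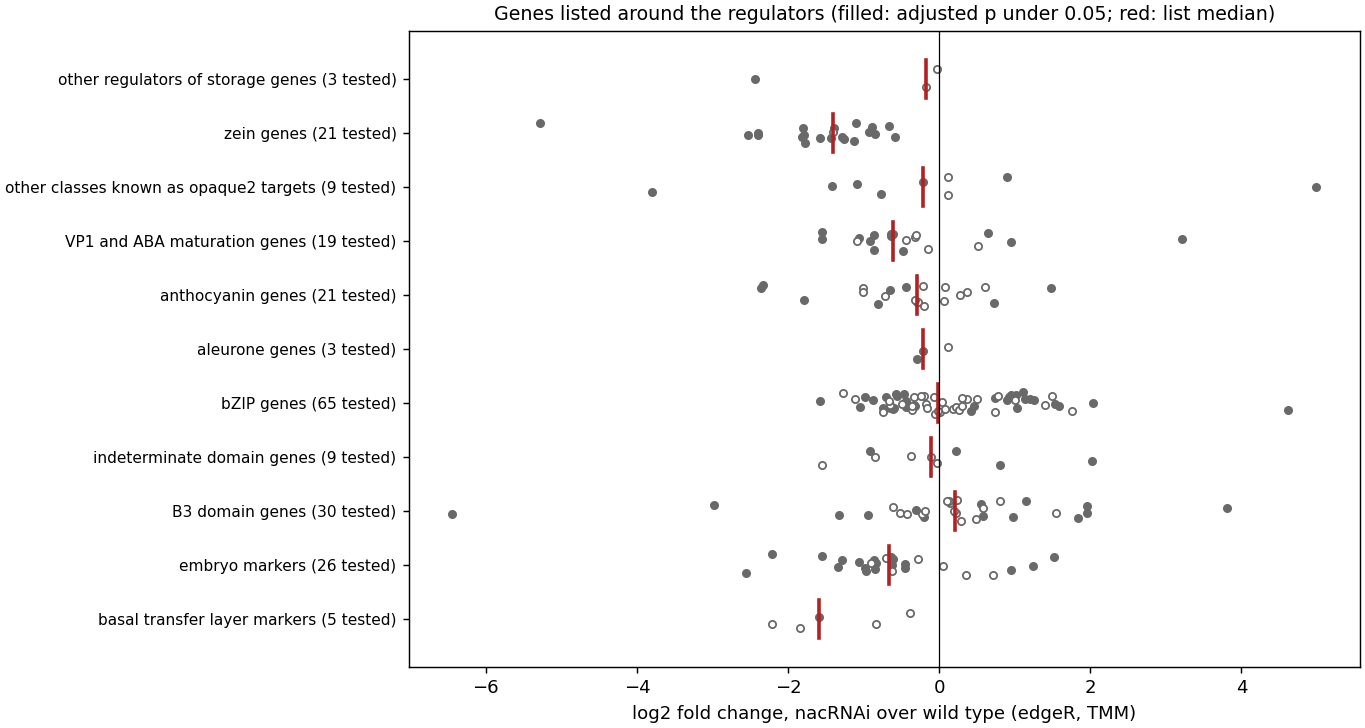
The log2 fold change (nacRNAi over wild type, horizontal axis) of each tested gene in the lists read around the regulators (vertical axis); filled points passed an adjusted p under 0.05 and the red line is the list median. Zein genes lie left of 0 on this scale, with a median of -1.40, whereas bZIP genes spread to both sides around -0.01.

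Genes of seed maturation, the field of Viviparous-1 and abscisic acid, were more often lower than higher on the TMM scale. On FPKM they were not, but there 56.2% of all genes passed as higher. Of 27 globulin, oleosin, cupin and related genes, whose oleosins also stand among the embryo markers, 19 were tested, and 3 rose and 10 fell (median -0.62). With 1 library left out 3 to 6 rose and 6 to 9 fell, and leaving out any library but nacRNAi replicate 1 moved a count by over 1.5 times. Without wild-type replicate 3 these counts were 5 and 6. Oleosin Zm-I (Zm00001d002768), an oil body protein, was at 410, 358 and 358 CPM in nacRNAi, against 728, 676 and 651 CPM in wild type (log2 fold change -0.87, edgeR adjusted p = 0.000101). Oleosin Bn-V (Zm00001d009648) fell by 1.55 and the cupins Zm00001d003552 and Zm00001d025509 fell by 1.56 and 0.86 on the log2 scale. By library totals 4 of the 19 were higher and 5 lower (median -0.10), beside a median gene at 0.52 and 50.5% of genes higher and 9.00% lower. On log2(FPKM + 1) 6 were higher and 2 lower (median 0.30), beside a median gene at 0.38 and 6.73% of genes passing as lower. The list median thus lay below that of all genes on the TMM scale and on log2(FPKM + 1). Library totals add nothing to this, since they move every gene by about the same amount from its TMM value. On log2(FPKM + 1) neither Oleosin Zm-I (0.12, limma adjusted p = 0.387) nor the cupin Zm00001d025509 (-0.07, limma adjusted p = 0.551) passed.

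C1 is a MYB activator of anthocyanin genes in the aleurone that is known to need Viviparous-1. Its gene (Zm00001d044975) had 14, 8 and 13 reads in nacRNAi, against 0 reads in each wild-type library, too few to be tested. Over the lines this is 0.185 CPM in nacRNAi against a limit of 0.0167 CPM in wild type, set by 3 reads over its libraries, an at least 11.1-fold higher level by library totals.

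Of 46 anthocyanin and related genes 21 were tested, and 2 rose and 6 fell (median -0.30). Without wild-type replicate 2 the median was -0.10, and with 1 library left out 2 to 3 rose and 4 to 6 fell. A dihydroflavonol-4-reductase gene (Zm00001d046711), of the pathway that makes the pigment, was at 3.11, 3.98 and 4.18 CPM in nacRNAi, against 18.2, 22.4 and 17.4 CPM in wild type (log2 fold change -2.36, edgeR adjusted p = 2.44e-05). An anthocyanidin 5,3-O-glucosyltransferase gene (Zm00001d012785) was at 21.9, 20.9 and 18.6 CPM in nacRNAi, against 6.78, 7.62 and 7.64 CPM in wild type (log2 fold change 1.48, edgeR adjusted p = 3.13e-05). A second dihydroflavonol-4-reductase gene (Zm00001d046713) fell by 2.34 and an anthocyanidin 3-O-glucosyltransferase gene (Zm00001d037384) fell by 1.79 on the log2 scale. Zm00001d046713 did not pass on log2(FPKM + 1) (-0.23, limma adjusted p = 0.0964). By library totals 4 of the 21 were higher and 3 lower (median 0.22), and on log2(FPKM + 1) 6 were higher and 2 lower (median 0.22). On these scales the median gene stood at 0.52 and 0.38, above the list. Of all genes 50.5% and 56.2% passed there as higher, and 9.00% and 6.73% as lower.

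Aleurone genes, the field of naked endosperm1, moved little. Of 4 genes with aleurone in their description 3 were tested, and 2 fell and 0 rose (median -0.21). With any 1 of the 6 libraries left out 0 or 1 fell, so the count of 2 needed all libraries. Supernumerary aleurone1 (Zm00001d046599) was at 81.4, 78.9 and 75.5 CPM in nacRNAi, against 87.4, 107 and 93.5 CPM in wild type (log2 fold change -0.29, edgeR adjusted p = 0.0229). Aleurone9 (Zm00001d012571) was at 18.8, 19.6 and 19.1 CPM in nacRNAi, against 23.2, 22.0 and 21.4 CPM in wild type (log2 fold change -0.21, edgeR adjusted p = 0.0449). By library totals all 3 were higher (median 0.31), beside a median gene at 0.52 and 50.5% of genes passing as higher. The sign thus turned with the scaling. The list median lay below that of all genes on both scales, which counts once, since changing between them moves every gene by about the same amount. The remaining gene, red aleurone1, had at most 1 read in any library.

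Genes marking the base of the endosperm or its border with the embryo were scarce. Of 11 basal transfer layer genes 5 were tested and 1 fell, maternally expressed gene4, and their summed level was 15.1 to 24.8 CPM in nacRNAi and 25.8 to 66.1 CPM in wild type. As a share of all counts they took 0.00184% to 0.00295% in nacRNAi and 0.00208% to 0.00577% in wild type, which overlap. Without nacRNAi replicate 1 the number lower was 2, and on log2(FPKM + 1) it was 0, where maternally expressed gene4 (Zm00001d019541) stood at -0.29 (limma adjusted p = 0.506). None of the 4 embryo surrounding region genes had enough reads to be tested.

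The genes whose profile over the 6 libraries lay nearest to each regulator were found by the root mean square difference of log2 CPM, each gene centred on its own mean, among 11647 described genes with a mean of at least 5 CPM. For opaque2 these were derlin3 (Zm00001d037687), of a family that serves the removal of misfolded proteins from the endoplasmic reticulum, at 0.06, a rhamnose synthesis gene described as RHM2 (Zm00001d028654) at 0.07 and phosphoglycerate mutase-like protein AT74H (Zm00001d010902) at 0.08. Derlin3 was at 9.63, 9.90 and 8.67 CPM in nacRNAi, against 18.4, 25.1 and 17.4 CPM in wild type. Wild-type replicate 2 was highest as for opaque2, a likeness that follows from how the gene was chosen. Within a difference of 0.1 lay 9 genes for opaque2, 5 for OHP1, 610 for naked endosperm1 and 12 for Viviparous-1.

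Among the nearest to OHP1 were the chaperone gene dnaJ 11 (Zm00001d053213) and an aspartokinase/homoserine dehydrogenase gene (Zm00001d005535), both at 0.08. Nearest to naked endosperm1, at 0.04, were homologs of U3 small nucleolar RNA-associated protein 18 (Zm00001d014766) and vacuolar protein-sorting-associated protein 11 (Zm00001d025210) and the gene STRUBBELIG-RECEPTOR FAMILY 1 (Zm00001d015435). Nearest to Viviparous-1 were an electron carrier and iron ion binding protein (Zm00001d035186), sphingosine-1-phosphate lyase (Zm00001d008389) and mitochondrial phosphate carrier protein 3 (Zm00001d018187), at 0.07 to 0.08.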

How the data were processed

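Endosperm RNA of 6 libraries, 3 per line, was extracted with TRIzol, cleaned on an RNeasy kit with DNase and made into Truseq mRNA libraries, per the labels' protocols. Whether strand was kept is not stated there. The authors deposited raw read counts per gene and, in a separate table, FPKM values per gene. The sources used here give no aligner, counter, build or annotation. Lines and replicate numbers came from the titles.

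Counts passed filterByExpr, were scaled by TMM and went into the edgeR 4.0.16 quasi-likelihood test with robust fitting and line as its term (R 4.3.3), adjusted over all 22259 genes. Each SE is approximate, from the log2 fold change and edgeR's F. This step was tried on simulated data with few changed genes, in both directions. Those data lacked the shift of zein reads seen here, so they do not test the choice of scaling. Alternatives were other scalings, filters and tests (DESeq2 1.42.0, and limma 3.58.1 on FPKM), a replicate block and each library left out. Ratios were tested by exact permutation with scipy 1.17.1 in Python 3.11.15. Profiles were compared on log2(CPM + 0.5).

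The regulators, the gene lists and the tests were chosen with earlier results of these data known. Lists were matched by identifier or description and repaired after the files were read: wrong matches were dropped, floury2 and floury4 joined the zein genes, and 4 identifiers that the files describe in other words left the regulators. Named genes are the regulators, the targeted NAC genes, up to 4 genes a list (by smallest adjusted p) and the 3 nearest profiles of each regulator, of which 1 is not reported here. Named after values were seen were floury2, 22kD alpha zein5, 22kD alpha zein4, zein protein 22.1, Glutelin-2 and Zein-alpha A20. So were the dikinases, Zm00001d004978, the highest genes of each family, the gene next to OHP1 and C1.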

Additional observations from a re-analysis of the deposited data

How the results depend on the processing

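Over 16 alternatives the number of genes that passed ran from 8525 to 14004, against 10519. By library totals 84.9% of the genes that passed were higher, against 49.2% with TMM. The opaque2 call was lost in 1 alternative, log2(FPKM + 0.1) (-0.57). Viviparous-1 lost its call by library totals (-0.25), on log2(FPKM + 1) (-0.19) and on log2(FPKM + 0.1) (-0.23). In these settings naked endosperm1 passed as higher (0.55, 0.61 and 0.62) and OHP1, which did not pass, turned positive (0.13, 0.12 and 0.19). The median gene stood at 0.52, 0.38 and 0.59 there. With 1 library left out, opaque2 ran from -1.06 to -0.76, OHP1 from -0.51 to -0.14, naked endosperm1 from -0.024 to 0.10 and Viviparous-1 from -0.85 to -0.61, with no call gained or lost; the opaque2 to Viviparous-1 ratio difference ran from -0.43 to 0.084. Removing a gene length trend, chosen after seeing the data, left opaque2 at -0.93 and Viviparous-1 at -0.66, both still called. Same-numbered libraries of the lines deviated with correlations of -0.04, -0.04 and -0.10, and no library correlated best with its own number. With replicate number as a block 9273 genes passed, no regulator changed its call, and 1 aleurone gene in place of 2 passed as lower. Depth limits OHP1, at 158 to 234 reads.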

Other observations

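The files describe 2 other genes as viviparous, named for the same trait of germination on the ear, and both were looked at after their values were seen. Viviparous14 (Zm00001d033222) had 75, 50 and 64 reads in nacRNAi, against 13, 30 and 12 reads in wild type. Every nacRNAi library had more CPM than every wild-type library, but the change of 1.16 on the log2 scale (SE 0.47) did not pass (edgeR adjusted p = 0.0774). Scaled by library totals it did pass as higher, at 1.69 (edgeR adjusted p = 0.0132). It also did on the FPKM scale with 1 added before the log, at 0.67 (limma adjusted p = 0.000538). Viviparous9 (Zm00001d019124) was at 10.1, 12.4 and 9.97 CPM in nacRNAi, against 18.2, 18.0 and 16.4 CPM in wild type (log2 fold change -0.70, edgeR adjusted p = 0.00159). By library totals it was at -0.18 and did not pass (edgeR adjusted p = 0.184).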
